A study of Mus musculus with 2 samples.

Results

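The cytosolic ribosomal protein genes of the mouse encode the proteins of the small (40S) and large (60S) subunits of the ribosome. They were taken from the GENCODE M21 annotation as the autosomal protein-coding genes with 2 or more exons whose symbols are Rpl or Rps with a number, together with Rplp0, Rplp1, Rplp2 and Rpsa. Ribosomal protein kinases and paralogs with the letter l or x were left out. The rule found 72 genes, 43 of the 60S and 29 of the 40S subunit, among 19617 autosomal protein-coding genes with 2 or more exons. Of the other ribosomal proteins, Rpl10, Rpl36a, Rpl39 and Rps4x lie on the X chromosome, and Fau, Rack1 and Rps3a1, for example, have symbols of another form. The series holds DNase-seq of urinary bladder tissue from 2 female B6CASTF1/J mice aged 36 days, 1 library per animal, called replicate 1 and replicate 2 here, with no second condition. The labels name no treatment. DNase-seq reads where nuclear DNA can be cut by deoxyribonuclease I, so that open, protein-accessible stretches give peaks and short protected stretches within them give footprints. B6CASTF1/J is the first-generation cross of C57BL/6J with CAST/EiJ, a strain derived from wild mice, and the values pool both parental alleles. With 1 group of 2 animals no test was possible, so each value is given for both animals, replicate 1 first, and differences are descriptions. The bladder holds many cell types, and a lower peak cannot be told apart from a peak open in fewer of the cells. The tissue label was checked only by whether marker genes had a peak. Upk1a, Upk2, Upk3a (uroplakins of the urothelium), Myh11 and Acta2 (smooth muscle) had a peak at the start in both animals, and Alb (liver) and Ins2 (pancreas) had none. Over all genes, 63.3% had a peak in both animals at the principal start. The marker peaks were low, with heights (the authors' signal) from 0.703 and 0.875 at Acta2 to 3.32 and 1.91 at Upk2.

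Ribosomal proteins are made in nearly every cell and in matched amounts, and their genes are among the most strongly transcribed of the genome. Their promoters are known for short cores around a start that lies in a run of pyrimidines, the base of the TOP motif through which mTOR signalling controls translation of their mRNAs. Binding sites of ETS factors such as GABP, of SP factors and of YY1 have been described in them, the last often downstream of the start. TCGCGAG, an element of strong housekeeping promoters, is known to be bound by BANP and by ZBTB33 (Kaiso).

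The promoter sequences that carry these elements in the footprints are shown first. Each runs from 100 bases before to 19 bases after the first transcribed base of the principal transcript, which is position 0, so the last 20 bases belong to exon 1 and the others lie upstream of the gene. Capitals mark bases inside footprints called in both animals. The letters are those of the GRCm38 reference (RefSeq), which is C57BL/6J, and CAST/EiJ differences are not shown. TCGCGAG, read on either strand, lay inside capitals in the 3 genes shown: Rps6 (chr4:86857393-86857512, minus strand), Rpl26 (chr11:68901483-68901602, plus strand) and Rps15a (chr7:118116169-118116288, minus strand).
Rps6: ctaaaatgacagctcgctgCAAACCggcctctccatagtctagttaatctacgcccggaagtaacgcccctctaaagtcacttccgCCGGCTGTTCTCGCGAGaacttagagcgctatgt
Rpl26: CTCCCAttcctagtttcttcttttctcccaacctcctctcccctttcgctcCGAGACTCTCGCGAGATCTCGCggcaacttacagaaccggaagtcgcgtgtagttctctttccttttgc
Rps15a: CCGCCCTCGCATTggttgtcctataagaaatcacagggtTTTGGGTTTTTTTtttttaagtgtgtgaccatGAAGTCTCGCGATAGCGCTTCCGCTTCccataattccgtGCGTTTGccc

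The ETS-type element CCGGAAG lay wholly or mostly in capitals in Rps21 (chr2:180257277-180257396, plus strand), where 2 sites do so, and in Rpl8 (chr15:76903978-76904097, plus strand).
Rps21: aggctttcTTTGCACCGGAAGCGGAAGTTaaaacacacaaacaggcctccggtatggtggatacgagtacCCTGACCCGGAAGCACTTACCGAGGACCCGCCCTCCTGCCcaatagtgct
Rpl8: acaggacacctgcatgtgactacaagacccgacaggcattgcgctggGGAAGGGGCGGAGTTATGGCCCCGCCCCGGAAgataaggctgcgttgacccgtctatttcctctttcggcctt

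The YY1-type element GATGGCG was searched on both strands, and in the 4 genes shown at least 50% of its bases lay in a footprint in each animal after the start, on the strand opposite to the gene, so that it reads CGCCATC below. The 30 bases around it are shown for Rpl35a (chr16:33056478-33056507, plus strand), Rpl36 (chr17:56613419-56613448, plus strand), Rps13 (chr7:116334096-116334125, minus strand) and Rps27a (chr11:29547832-29547861, minus strand).
Rpl35a: cttcctctttccgcCATCTTGgcgcctgtg
Rpl36: cctgtccCGGCCGCCATCggagagcatcag
Rps13: tgccagacCTCCGCCatcatgggtcgcatg
Rps27a: ctttccgaTCCGCCATCGTGGGtgagtgta

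The genes with the highest and the lowest mean peak at the principal start are set beside each other for contrast. Rplp0 (chr5:115559367-115559486, plus strand) had 64 of its 120 bases in footprints of both animals. Rpl4 (chr9:64173275-64173394, plus strand) had 0 of 120. The highest peak in the Rpl4 window had its middle at -444.5 and -454.5 bp from the start, outside the bases printed.
Rplp0: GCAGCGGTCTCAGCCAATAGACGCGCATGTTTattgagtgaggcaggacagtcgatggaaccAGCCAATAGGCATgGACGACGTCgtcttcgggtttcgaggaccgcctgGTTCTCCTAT
Rpl4: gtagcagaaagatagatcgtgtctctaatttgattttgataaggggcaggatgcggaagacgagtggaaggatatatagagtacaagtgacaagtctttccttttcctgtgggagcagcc

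Nearly every ribosomal protein gene had an open 5′ end. In the larger deposited list, a peak lay within 500 bp of the 5′-most annotated transcript start in both animals in 68 of 72 genes (94.4%), while 62.7% of all 19617 genes had one. The exceptions were Rps2, Rps10 and Rpl17, with no peak in either animal and no footprint, and Rpl3, with a peak of height 1.95 in replicate 2 only. In these 4 genes the annotation holds a transcript that begins far upstream of the principal one: the start of the principal transcript lies 1994 bp downstream of it in Rps2, 1124 bp in Rps10, 1919 bp in Rpl17 and 8462 bp in Rpl3. The principal transcript was defined, after these values were seen, as the CCDS-tagged transcript with the best support level. At its start the peak height, the authors' own signal value, was 12.8 and 5.52 for Rps2, which lines the mRNA entry site of the small subunit. It was 4.44 and 3.53 for Rps10, 9.69 and 5.49 for Rpl17, and 12.4 and 9.11 for Rpl3, a core protein near the peptidyl transferase centre. All 72 genes then had a peak in both animals, against 63.3% of all genes. Rps14, whose human counterpart lies in the region lost in 5q- syndrome, has the longest such gap, 27498 bp. Its height was 1.11 and 0.985 at the most upstream start and 5.64 and 4.93 at the principal start. Rps24 likewise had 5.18 and 3.41 at the first and 10.6 and 6.75 at the second. For 54 of the 72 genes both starts are the same base, and 7 genes have a gap over 500 bp.

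The ribosomal protein genes had higher promoter peaks than most genes but were not the highest in the bladder. Their median height at the most upstream start was 8.63 and 5.55 (mean 7.09 ± 2.18, SD, n = 2), against 4.94 and 3.64 (4.29 ± 0.924) for all other genes with a peak. At the principal start the medians were 9.0 and 5.64 for the ribosomal protein genes and 5.23 and 3.75 for the other 12347 genes with a peak in both animals. Of the 72 genes, 11 (15.3%) reached the top 10% of heights in both animals (12.5 and 7.34 and above at the most upstream start), against 4.92% of all genes. The count was again 11 at the principal start, against 4.97%. The top 10% was taken over genes with a peak, while the shares of all genes include those without one. At the most upstream start, 966 of all genes reached it, and 12309 had a peak in both animals. The highest promoter peak of any other gene was 45.7 and 26.4. At the principal start, heights within the family ran from 2.70 to 19.4 in replicate 1 and from 2.67 to 12.04 in replicate 2. The subunits overlapped over most of this range, with medians of 10.3 and 5.84 for the 40S genes and 8.63 and 5.49 for the 60S genes.

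**Figure D1:**
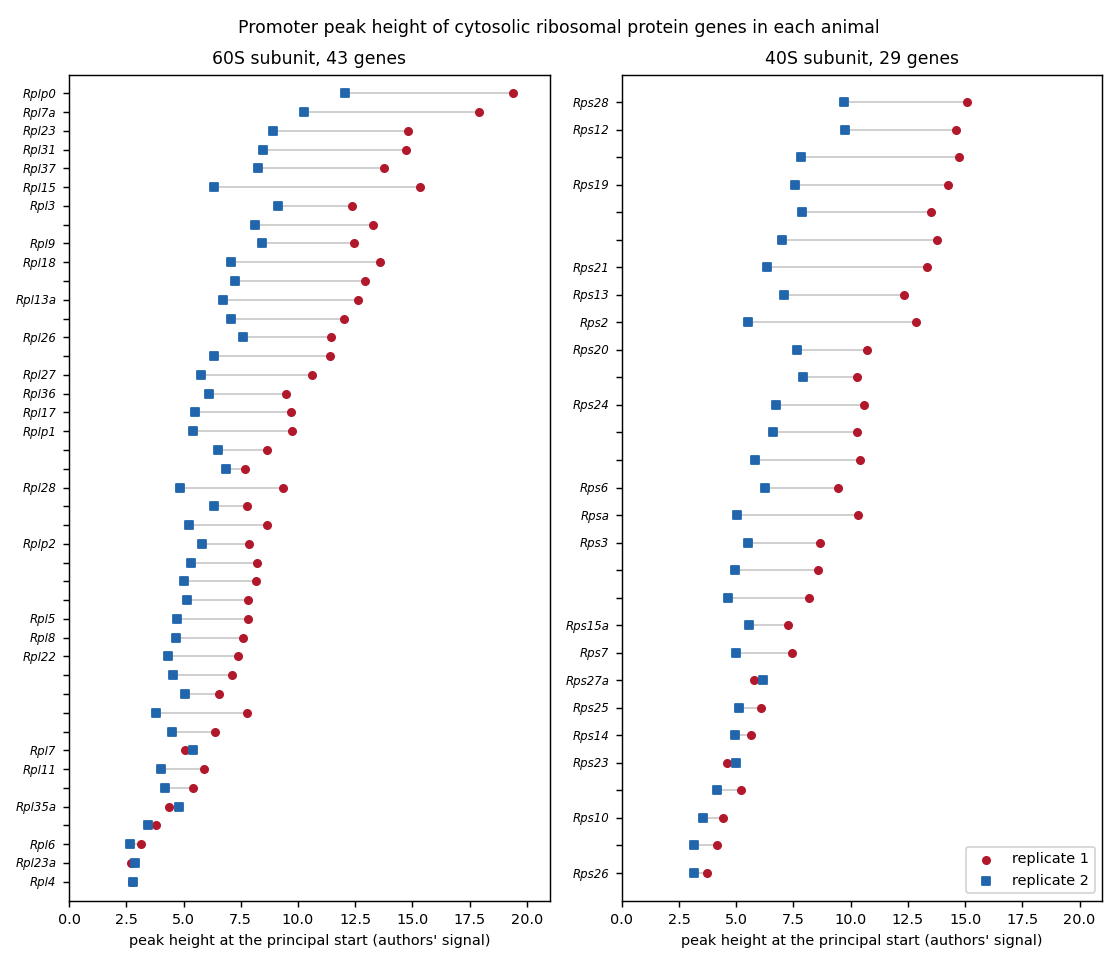
Height of the highest peak within 500 bp of the principal start (authors' signal, x axis) for each of the 72 genes, split by subunit and ordered by the mean of the animals, with a circle for replicate 1 and a square for replicate 2. Names are printed for genes described in the text. Rplp0 tops the 60S panel at 19.4 and 12.04, and Rpl4, Rpl23a and Rpl6 close it below 3.2 in both animals.

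**Figure D2:**
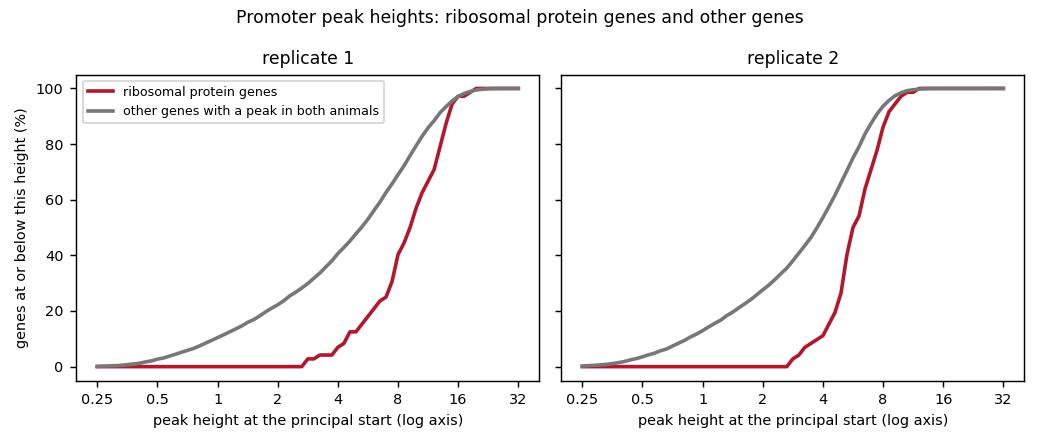
Share of genes (y axis, %) at or below a peak height at the principal start (x axis, log scale), 1 panel per animal. The curves are for the 72 ribosomal protein genes and the other 12347 genes with a peak in both animals. The curve of the ribosomal protein genes begins at 2.70 and 2.67, where other genes have already accumulated, and it ends at 19.4 and 12.04, while single other genes reach 45.7 and 26.4.

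Among the proteins of the ribosomal stalk, which recruits the elongation factors, the heights differed widely. Rplp0 (ENSMUSG00000067274.10, chr5:115559467-115563727, plus strand), the base of the stalk, had the highest promoter peak of the family, 19.4 and 12.04 (mean 15.7 ± 5.21, SD, n = 2). Rplp1 had 9.73 and 5.43 and Rplp2 had 7.87 and 5.80, although Rplp2 was among the genes with the most footprints, 10 and 14. The 3 genes thus did not share a level, and in each animal Rplp0 stood apart from the other 2.

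Other high means belonged to Rpl7a (ENSMUSG00000062647.16, chr2:26910764-26913318, plus strand; 17.9 and 10.3), Rps28 (15.1 and 9.73), Rps12 (14.6 and 9.75), Rpl23 (14.8 and 8.90), Rpl31 (14.7 and 8.46) and Rpl37 (13.8 and 8.26). Rpl23 is a protein of the subunit interface that also binds MDM2. These genes and Rplp0 were above the threshold of the top 10% in both animals. Rplp0 exceeded Rpl7a in both animals, and Rpl7a exceeded the other genes of this list in both, while Rps28 and Rps12 changed places between the animals.

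At the low end stood 3 proteins of the large subunit and 1 of the small. Rpl4 (ENSMUSG00000032399.8, chr9:64173375-64178666, plus strand), which lines the exit tunnel for the nascent chain, had 2.74 and 2.80 (mean 2.77 ± 0.0449, SD, n = 2). The middle of this peak lay at -444.5 and -454.5 bp from the start, and the peak did not cover the start. Rpl23a, at the mouth of that tunnel, had 2.70 and 2.89, and Rpl6 had 3.12 and 2.67. Rps26, a protein of the mRNA exit channel, had 3.74 and 3.15. These were heights of different peaks, with middles at -113.5 bp from the start in replicate 1 and 276.5 bp in replicate 2. All 4 lay below the median of other open genes in both animals. The number of footprints at these low peaks varied. Rpl4 had 12 and 11, although none of them lay in both animals within the 120 bases printed above. Rpl23a had 7 and 4, Rpl6 4 and 7, and Rps26 8 and 9.

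Rpl5 and Rpl11, whose products report ribosome stress, lay below the family median in both animals. These products bind MDM2 together with the 5S rRNA, and the genes had 7.80 and 4.70, and 5.91 and 4.02. Rpl23, named above as also binding MDM2, lay above that median with 14.8 and 8.90. Rpl5 had 7 and 16 footprints, the largest difference in number between animals among the genes named here. Among the 40S genes, Rps27a, made as a fusion with ubiquitin, had 5.76 and 6.15, and Rps3, a protein of the mRNA entry channel with a role in DNA repair, had 8.67 and 5.52. Rps6, the substrate of the S6 kinases, had 9.44 and 6.25. Rpsa, named for its link to the laminin receptor, had 10.3 and 5.05. Rps19, whose human counterpart is the gene most often mutated in Diamond-Blackfan anaemia, had 14.3 and 7.58 with 13 and 10 footprints. Of the 60S genes, Rpl13a, which in human cells also has a role in silencing inflammatory mRNAs, had 12.6 and 6.71, and Rpl22 had 7.38 and 4.31.

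Ribosomal proteins left out by the rule were open too. Fau, which encodes Rps30 as a fusion, had 14.1 and 7.89, Rps3a1 had 12.9 and 8.49, and Rack1 had 4.68 and 4.58. The heights of Fau equal those of Mrpl49, a mitochondrial ribosomal protein gene, so the same peak may be counted for both genes. The 4 X-linked genes were all lower than the median of the autosomal ones in both animals. Rpl10 had 5.27 and 2.68, Rpl36a 5.35 and 3.24, Rpl39 4.20 and 2.97, and Rps4x 3.62 and 2.39. The median over 396 X-linked genes with a peak in both animals was 2.66 and 1.88, so all 4 stood above the middle of their chromosome.

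Of 7 paralogs, 4 were open. Rpl22l1 had 16.8 and 8.77, higher than Rpl22 in both animals, Rpl36al had 13.2 and 8.51, Rps27l 8.01 and 5.67 and Rpl7l1 5.45 and 4.35. The 3 without a peak or a footprint were Rpl3l, known from heart and skeletal muscle, and Rpl10l and Rpl39l, known from the testis. Related gene groups were as often open as the ribosomal protein genes. All 78 mitochondrial ribosomal protein genes had a peak in both animals, with median heights of 6.22 and 4.43. All 22 genes of translation factors and other mRNAs with a TOP motif had one, with 9.93 and 5.91 (among them Eef2, which moves the ribosome along the mRNA, with 15.3 and 8.32), as did all 29 genes of ribosome assembly, with 8.29 and 4.97. The cytosolic ribosomal protein genes, at 9.0 and 5.64, thus lay between the translation factors and the assembly genes, and all of these medians fell within the interquartile range of the cytosolic genes except those of the mitochondrial set.

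The median number of bases with a raised cut rate around the start was higher at ribosomal protein genes than at the whole set of other open genes. It was lower than at other open genes of similar height. Around the start itself, 98.6% of bases in both animals had a cut rate at a false discovery rate (FDR) up to 0.001 in the authors' table, against 86.6% and 87.0% in other genes with a peak in both animals. At 800 to 819 bp downstream the order had turned, with 5.42% and 6.25% against 13.3% and 18.7%. All bases at this FDR within 1 kb on either side were counted, whether in 1 stretch or several. Their median number was 766 and 954 bp in the ribosomal protein genes and 709 and 866 bp in the other open genes. The most was at Rpl7, with 1622 and 1625 bp. Other genes with the same range of mean heights (5.82 to 9.75, the middle 50% of the family) had 850 and 1018 bp, while the 36 ribosomal protein genes in that range had 779 and 954 bp. Peaks farther inside the gene were uncommon: 26.4% and 30.6% of the ribosomal protein genes had one beyond 500 bp of the principal start, against 75.9% and 72.6% of other open genes. The genes are also short, with a median span of 3.33 kb against 25.7 kb, and the part of gene length in that difference was not tested.

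**Figure D3:**
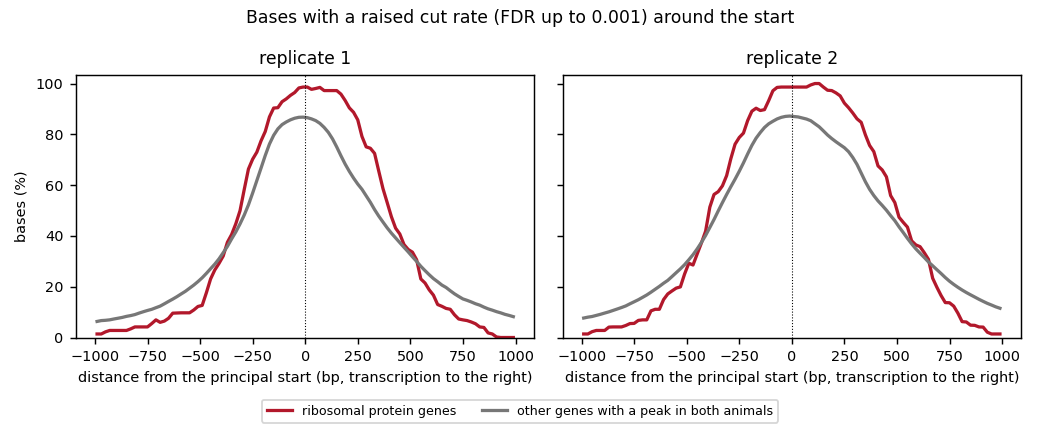
Share of bases (y axis, %) with a cut rate at an FDR up to 0.001, in bins of 20 bp by distance from the principal start (x axis, bp), for the 72 ribosomal protein genes and 12347 other genes with a peak in both animals, 1 panel per animal. The ribosomal protein genes are higher at the start (98.6% in both animals) and lower far from it, with 5.42% and 6.25% against 13.3% and 18.7% at 800 to 819 bp downstream.

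Footprints were as frequent as in other promoters of the same height. At the most upstream start the median was 7 and 7 per ribosomal protein gene, against 3 and 4 over all other genes, open or not. At the principal start it was 7 and 8, against 6 and 6 in other open genes and 7 and 8 in the 3328 other genes in the middle range of heights, where the 36 ribosomal protein genes also had 7 and 8. No ribosomal protein gene had fewer than 3 there. The most were found at Rplp2 (10 and 14) and Rpl7 (11 and 13), followed at an equal mean by Rps19 (13 and 10), Rps25 (13 and 10), Rpl5 (7 and 16) and Rpl4 (12 and 11). Rpl7a, with the second highest peak, had few (6 and 3). Across the 72 genes, mean height and mean number of footprints had a Spearman coefficient of -0.16, and across 12347 other open genes one of 0.62. The other open genes span a wider range of heights, from 0.174 to 45.7 in replicate 1, and the part of this range in the contrast was not tested. Both coefficients describe genes within the same pair of libraries and carry no p. Of 513 and 571 footprints at the ribosomal protein genes, 67.6% and 63.9% overlapped a footprint of the other animal, against 64.3% and 60.8% at other open genes.

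Footprints covered more of the bases just downstream of the start than in other genes. In the 20 bases from the start on, 33.6% and 34.2% of bases lay in a footprint, against 22.9% and 21.1% in other open genes. At 100 to 119 bp downstream the shares were 18.4% and 17.4%, against 7.86% and 9.16%. Upstream, at 60 to 41 bp before the start, they were 36.8% and 35.6%, against 28.7% and 26.5%. At the edges of the window the shares were a few percent in both gene sets, and neither was higher in every bin. The other genes in this comparison include lower peaks, whose part in the difference was not tested.

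**Figure D4:**
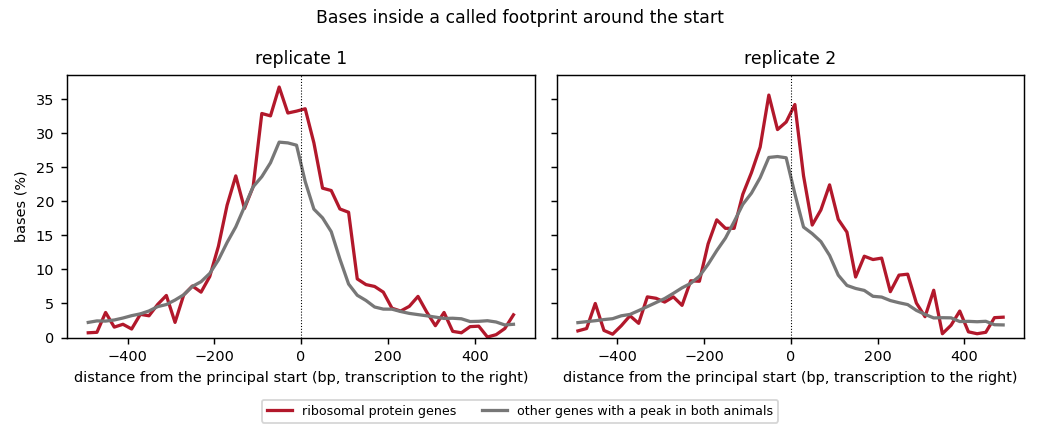
Share of bases (y axis, %) inside a called footprint, in bins of 20 bp by distance from the principal start (x axis, bp), for the 72 ribosomal protein genes and 12347 other genes with a peak in both animals, 1 panel per animal. The ribosomal protein genes show 18.4% and 17.4% at 100 to 119 bp downstream, where the other genes have 7.86% and 9.16%.

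Sequence elements were counted on both strands within 250 bp of the principal start, and overlapping matches were merged to 1 site. TCGCGAG was found in 20 of 72 ribosomal protein genes (27.8%), against 5.77% of other open genes. Of its 22 sites, 12 (54.5%) had at least 50% of their bases in a footprint in both animals, against 29.8% of the sites of other open genes. Besides the genes printed above, these were found in Rps28, Rpl7a and Rps7, among others. CCGGAAG was found in 29 genes (40.3%), against 22.1%, with 36.1% of 36 sites in footprints of both animals, against 29.3%. GATGGCG was found in 26 genes (36.1%), against 11.6%. On the strand opposite to the gene it occurred in 19 genes (26.4%), against 4.03%, and 18 of these 20 sites lay downstream of the start. Of all 30 sites, 36.7% were in footprints of both animals, against 19.1%. Of the opposite-strand sites 9 were in footprints of both animals, at Rpl3, Rpl18, Rpl27, Rpl28, Rpl35a, Rpl36, Rps13, Rps27a and Rps28. On the gene's own strand GATGGCG was found 10 times in 9 genes, and 4 of these sites, among them those at Rpl13a, Rpl23a and Rps3, overlap the annotated start codon. The other open genes include lower peaks, whose part in the differences of footprint shares was not tested. A match names letters only, and whether the factor was bound was not measured.

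The other elements were searched in the same way. GGGCGG, the SP-type element, was found in 75% of ribosomal protein genes, against 77.9% of other open genes. TGACGT (CREB and ATF) was found in 22.2% against 14.2%, CACGTG (MYC and USF) in 20.8% against 13.1%, and GCGCATGC (NRF1) in 6.94% against 5.89%. AAGATGGC, a longer YY1 form, was found in 15.3% against 6.90%, TGANTCA (FOS and JUN) in 6.94% against 6.53%, AGATAA (factors of the GATA family) in 8.33% against 7.69%, and ACTACAATT (ZNF143) in 1 gene (1.39%), against 0.850%. CCAAT (NFY) was less common, 31.9% against 44.3%. TATAAA was found in 7 genes (9.72%), against 7.88%, with 6 of 8 sites in footprints of both animals, against 9.76% of sites in other open genes. They include those at Rpl3, Rplp0, Rps2, Rps20 and Rps28, and the one at Rps2 begins 30 bp before the start, the usual place of a TATA box. The narrower window ran from 250 bp before to 49 bp after the start. There TCGCGAG was found in 20.8% against 3.85% and CCGGAAG in 36.1% against 17.3%. GATGGCG was found in 11.1% against 6.20% and GGGCGG in 52.8% against 66.1%. Of the 15 TCGCGAG sites there, 46.7% were in footprints of both animals, against 38.1% in other open genes. For CCGGAAG the share was 41.9% of 31 sites, against 33.9%. It was 44.4% of 9 sites for GATGGCG, against 26.6%, and 64.9% of 57 for GGGCGG, against 43.3%. The promoters of the ribosomal protein genes, in that narrower window, had a median GC content of 56.3% against 61.3% and a ratio of observed to expected CpG of 0.894 against 0.765.

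**Figure D5:**
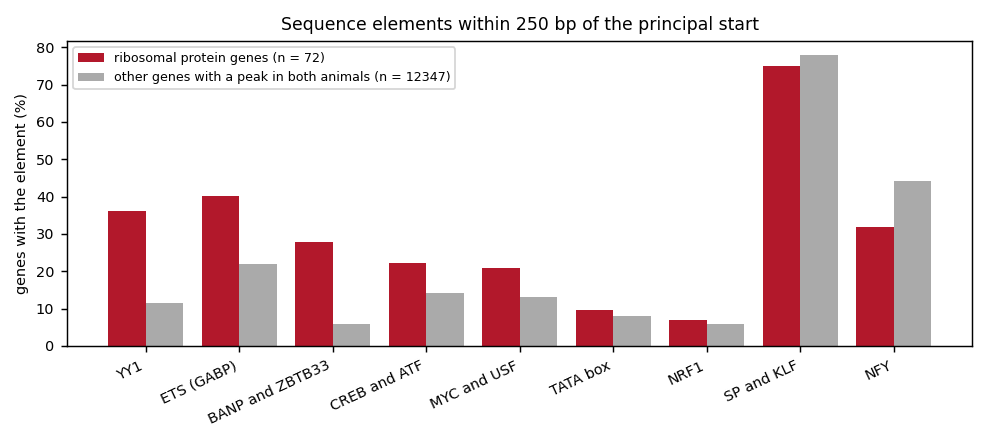
Share of genes (y axis, %) with a match of each element within 250 bp of the principal start, labelled by the factor known for it, for the 72 ribosomal protein genes and 12347 other genes with a peak in both animals. The YY1, ETS and BANP and ZBTB33 elements reach 36.1%, 40.3% and 27.8% in ribosomal protein genes, against 11.6%, 22.1% and 5.77%.

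A pyrimidine tract, a C with at least 4 pyrimidines after it, began within 10 bases of the most upstream start in 33 of 72 genes (45.8%), against 32.1% of other genes. At the principal start it did so in 36 genes (50%), against 30.8%. When it had to begin exactly at the most upstream start, 7 ribosomal protein genes and 2.30% of other genes remained. The tract was sought at annotated starts, and the start used in the bladder was not measured.

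Host genes of snoRNAs, the guides of rRNA modification that lie in introns, were common in the family. Of the 72 genes, 27 (37.5%) hold snoRNA genes on their own strand, 54 in all, against 1.11% of other genes. Rpl4 holds 5 and Rpl13a holds 4. Median heights were 10.3 and 6.51 in the hosts and 8.19 and 5.43 in the other ribosomal protein genes, with quartile ranges that overlapped in both animals. A gene on the opposite strand began within 1000 bp upstream in 13 genes (18.1%), against 15.9% of other open genes. Among the 13 were Rpl7a (Med22), Rps28 (Ndufa7), Rpl9 (Lias) and Rpl4 (Zwilch). A peak there can belong to either gene.

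Heights were lower in replicate 2 than in replicate 1 in 66 of the 72 genes (91.7%) and in 89.5% of other open genes, and the median log2 ratio was -0.54 over all genes with a peak in both animals. After this was subtracted, the ribosomal protein genes differed by a median of -0.10 (log2, replicate 2 over replicate 1) at either start, a value that turned to 0.03 with quantile scaling. At the principal start 47 of 72 were below 0, against 50% of all genes. Other genes in the middle range of heights had a median of -0.15, and 73.3% of them were below 0. The largest relative decreases in replicate 2 were at Rpl15, with heights of 15.3 and 6.31 (-0.74), Rps21, with 13.3 and 6.35 (-0.53), and Rpsa, with 10.3 and 5.05 (-0.49). The largest relative increases were at Rpl35a, with 4.35 and 4.78 (0.68), Rps23, with 4.58 and 4.99 (0.67), and Rpl23a, with 2.70 and 2.89 (0.64). At the principal start Rps2, with 12.8 and 5.52, joined the first set (-0.67). The relative increases were at low peaks and the decreases at high ones: the Spearman coefficient of mean height and difference was -0.62 in the family and -0.56 in other open genes. Across genes the heights of the animals had a Spearman coefficient of 0.87 over the 72 ribosomal protein genes and 0.97 over the other open genes, which span a wider range of heights.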

How the data were processed

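DNase-seq libraries of 2 animals (1 group) were used. The authors deposited, on mm10 per the labels, for each animal 2 peak lists, a footprint list and a table of cut rates. Peak height is a signal value computed by the authors, and its scaling is not given in the sources used here, nor are the aligner, the peak caller or the read depth. The larger lists (117773 and 102671 peaks) were used. The deposited cut-rate table gives an FDR, a p-value type measure, up to 0.05, and every footprint carries the same deposited p-value type threshold of 0.01. Per the deposited descriptions, calls were made in each animal separately.

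Windows were 500 bp on either side of a start, and a peak or footprint counted from 1 bp of overlap. Where several peaks met a window, the largest height was kept. GENCODE M21 and the GRCm38 genome were read with samtools 1.23.1 and pysam 0.24.0, and 99.98% of 19318 annotated start codons read ATG there. Values were computed with Python 3.11.15, numpy 2.4.6, pandas 2.3.3 and scipy 1.17.1, and plotted with matplotlib 3.10.9. The measuring functions were tested on simulated peaks. Because ribosomal protein genes have processed copies, the share of 32-base words in each window that occur once in the genome was counted: its median was 94.5%, against 100% in other genes, and it was lowest at Rps29 (59.3%), Rpl24 (68.8%) and Rpl37a (69.5%). Across the 72 genes it had a Spearman coefficient of -0.09 with height.

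Named genes were a fixed set of 15, the 8 highest and 5 lowest in mean height, those without a peak, the 3 with the largest difference in each direction, and those with the most or no footprints, at the most upstream start. Genes named for an element, a printed sequence, a snoRNA, a neighbour or a gap between starts were chosen after their values were seen. Some genes this rule would name are not reported here. Members and lists were chosen with earlier results of these data known. The principal start, the wider element window and the counts of unique words, snoRNA genes, opposite-strand neighbours, X-linked genes and pseudogenes were added after the data were seen. Alternatives were other windows, starts, lists and scalings, and leaving out each animal.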

Additional observations from a re-analysis of the deposited data

How the results depend on the processing

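Over 50 alternatives of 6 results, 42 stayed close to the reported value: counts and the height difference within 1.5 times, and median heights and footprints within the SD between animals, which was 0 for footprints. The median number of footprints per ribosomal protein gene, 7 in both animals, had a mean of 6 with 250 bp windows, 7.25 with 1000 bp windows and 7.5 with any annotated start or the principal start. The median height difference between animals was -0.29 when centred on all overlapping peak pairs and 0.031 with quantile scaling, which turned its direction. The cause was not tested. Pyrimidine tracts were found in 52 of 72 genes with any annotated start, against 51.3% of other genes, and in 7 when beginning exactly at the start, against 2.30%. Leaving out each replicate gave 68 to 69 of 72 genes with a peak, against 64.3% to 65.1% of all genes, median heights of 5.55 to 8.63, 15 to 16 genes in the top 10%, against 6.45% to 6.52% of all genes, and a median of 7 footprints in either case. The count with a peak ran from 67 (smaller list, 58.2% of all genes) to 72 (any annotated start, 67.6% of all genes, or the principal start). No paired analysis was possible because the result comes from no test and there is 1 group. Peak heights come without counts, so no interval could be given, and 2 animals limit every comparison.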

Other observations

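Processed pseudogenes of ribosomal protein genes, copies made from mRNA without their promoters, were seldom open. Of 259 annotated on autosomes, 3 had a peak within 500 bp of their start in both animals (1.16%), against 2.73% of 8934 other processed pseudogenes. They were Rpl29-ps2 (4.67 and 3.56), whose start lies 160 bp from that of a protein-coding gene, Rpl9-ps3 (1.86 and 1.12) and Rps19-ps10 (1.03 and 1.01). The uniqueness of sequence in these windows was not counted.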
